A study of Homo sapiens with 18 samples.

Results

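The one-day response of A549 cells to propionate was measured in 6 RNA-seq libraries of the 18 in the series, SP 24 h replicates 1 to 3 and Control 24 h replicates 1 to 3. A549 is an established line of human lung adenocarcinoma, a non-small cell lung cancer (NSCLC), labelled as wild type, and both groups were grown in high-glucose DMEM with fetal bovine serum. The SP 24 h cells received sodium propionate (SP) at 5 mM for 24 h, whereas the Control 24 h cells are labelled as untreated, with no matching sodium salt given for them. The same count table also holds SP 3 h (5 mM for 3 h), which shared this control, and a second table holds a separate experiment with Control 3 days, SP 3 days and SP 12 days. Each group is 3 libraries of 1 line; the labels do not tie them to separate cultures, although the study calls them biological replicates, and the p-values below measure the spread between these libraries. Of 61541 genes in the table, 17377 had enough reads to be tested.

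Propionate is a short-chain fatty acid that gut bacteria release from dietary fibre. Cells take it up mainly through monocarboxylate transporters, activate it to propionyl-CoA and feed it into the tricarboxylic acid cycle, and it also inhibits histone deacetylases, so that acetyl groups stay on histone tails. Epithelial-mesenchymal transition (EMT) is the program by which carcinoma cells lose E-cadherin junctions and keratins and gain vimentin and motility under transcription factors of the SNAI, ZEB and TWIST families. The comparison of SP 24 h with Control 24 h asks which genes had moved within 1 day, within a study of how propionate bears on EMT.

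The 6 libraries held 18568469 to 43765330 counted reads, and the SP 3 h libraries 14187401 to 30553986. Levels are given as normalised counts, which are reads scaled to the mean effective library size. They are not divided by gene length, so they compare libraries and not genes. Of 12 A549 markers, all were tested and their summed normalised counts were 691173 to 802998 in the Control 24 h libraries and 720673 to 761439.6 in the SP 24 h libraries, with 2 members higher and 4 lower (0 and 6 with the GC offset). The relation of expression to the GC content of transcripts differed between libraries. Across tested genes it had r = -0.48, -0.398 and 0.217 in the 3 controls and 0.171, 0.363 and 0.488 in the 3 SP 24 h libraries, so that it was mostly higher after treatment, with Control 24 h replicate 3 in the range of the treated libraries, and its part in the results was not tested. Values from a fit that removes, library by library, the dependence on transcript GC content and length (the GC offset) are therefore given beside list counts that it moved by 1.5 times or more or by 3 or more genes. The offset also removes each library's mean deviation over genes, so it moves the zero point of all fold changes as well.

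After 24 h of SP, 2922 genes were higher than in Control 24 h and 2087 were lower at an adjusted p under 0.05, which is 16.8% and 12.0% of the 17377 tested genes, in edgeR's quasi-likelihood test with Benjamini-Hochberg adjustment. The rises were the larger changes: 1770 of the higher genes but only 319 of the lower genes had changed 2-fold or more. In the stricter class that the study used, an adjusted p under 0.0001 with at least a 2-fold change, 108 genes (0.622%) were higher and 11 (0.0633%) were lower. When 1 library was left out, this strict count ranged from 1 without Control 24 h replicate 2 to 53 without Control 24 h replicate 3. With the replicate number as a block within the 2 groups (the blocked fit) it was 186 (176 higher and 10 lower), with that block over all 9 libraries 2, and with DESeq2 1192. All 119 genes nevertheless kept an adjusted p under 0.05 in the same direction in each of those fits. Of the wider class 2604 of the 5009 genes passed in every leave-one-out fit. With the GC offset the split was 2465 higher (14.2%) and 4289 lower (24.7%), and the median over all genes shifted from -0.01 to -0.13 on the log2 scale. The moved zero point is part of that change in the split. For gene lists, the lowest or highest count without 1 library, or the count in every leave-one-out fit, is given where a library moved the count by over 1.5 times and by 3 or more genes. Counts in a list are to be read beside the shares of all tested genes, 16.8% higher and 12.0% lower. They cover tested members only. A member near silent in Control 24 h was tested only where SP libraries had enough reads, which favours rises in lists of such genes. With the GC offset those shares were 14.2% and 24.7%, and in the blocked fit 3441 genes were higher and 3108 lower. Below, "higher" and "lower" mean an adjusted p under 0.05 in the fit without the block, and an error after ± is the standard error of the fitted log2 fold change with n = 3 libraries per group. The log2 changes of KLK10, ALDH1A2, CCL28, BST2, KCNJ4, ALPP, OVOL2 and TBX4, printed below without counts, rest on few control reads. Their mean normalised counts in Control 24 h were 1.68 (KLK10) to 4.59 (TBX4).

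**Figure D1:**
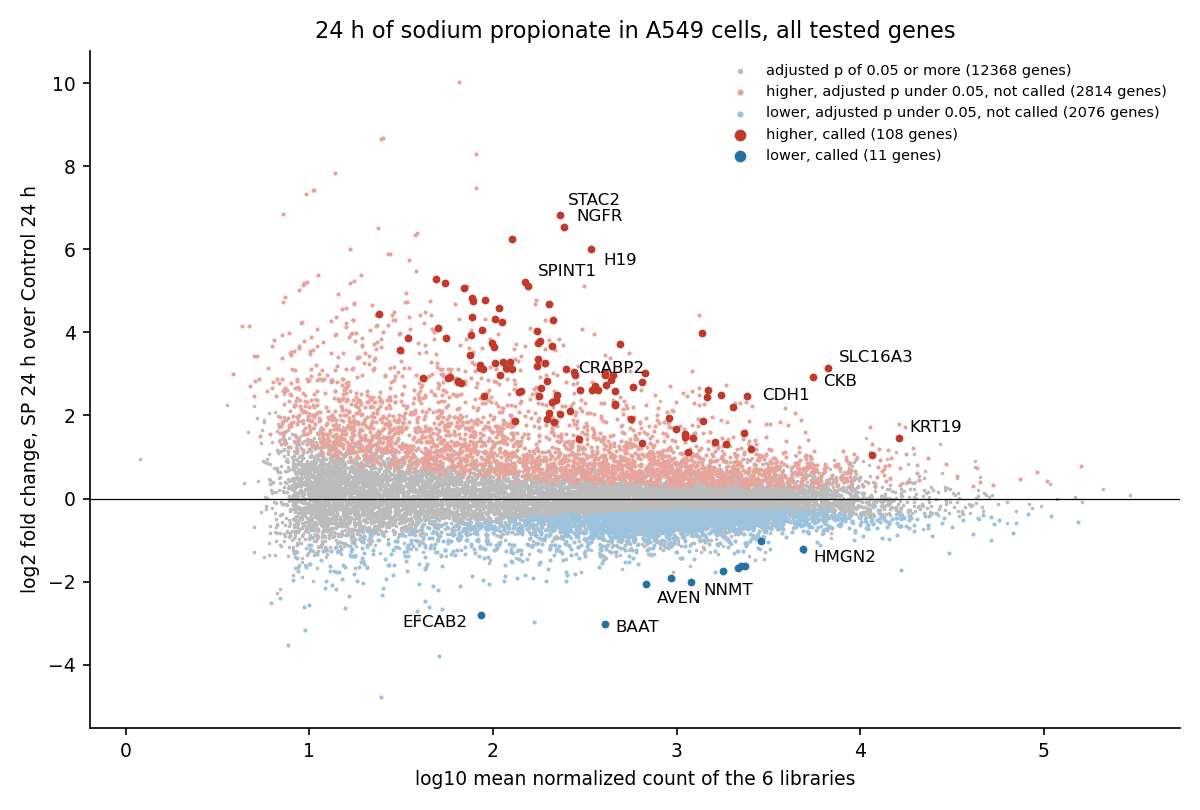
Each point is 1 of the 17377 tested genes, with the log10 of its mean normalised count over the 6 libraries on the x axis and its fitted log2 fold change of SP 24 h over Control 24 h on the y axis. Light coloured points passed an adjusted p under 0.05, and the strongly coloured ones are the 108 higher and 11 lower genes of the stricter class. The rises reach above 6 on the log2 scale, whereas the fall furthest from 0 among the genes of the stricter class is -3.02 (BAAT).

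The largest rises of the stricter class were in receptors, channels and other genes with few reads in untreated A549 cells. NGFR, the p75 neurotrophin receptor (chromosome 17, 49495293 to 49515008, GRCh38), had normalised counts of 4.15, 6.89 and 4.58 in Control 24 h and 290.4, 697 and 464 in SP 24 h (log2 fold change 6.53 ± 0.52, adjusted p = 7.28e-05). All 3 treated libraries lay far above all 3 controls, and so did the SP 3 h libraries at 68.1, 161 and 113. STAC2, an adaptor of voltage-gated calcium channels (chromosome 17, 39210541 to 39225945), went from 4.15, 4.14 and 3.66 to 322, 605 and 450.4 (log2 fold change 6.82 ± 0.56, adjusted p = 9.02e-05). In both the groups were far apart, and the control level rests on few reads. CHRM4, the muscarinic M4 receptor, rose by a log2 change of 5.11 ± 0.41, HPCAL4, a neuronal calcium sensor, by 5.07 ± 0.36, and SLC2A4, the insulin-responsive glucose transporter GLUT4, by 4.82 ± 0.39 on the log2 scale. ANKRD24, which encodes an ankyrin repeat protein, rose by a log2 change of 4.77 ± 0.38.

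H19 had the lowest adjusted p of all genes. This imprinted long noncoding RNA (chromosome 11, 1995166 to 2004552) had 9.67, 12.4 and 9.15 normalised counts in Control 24 h, 9.21, 11.003 and 8.51 in SP 3 h and 602, 689.8 and 726 in SP 24 h (log2 fold change 6.01 ± 0.19, adjusted p = 7.69e-07). Its level at 3 h overlapped that of the controls, and at 24 h every library was far above both. 213 bases of its exons are shared with the microRNA gene MIR675.

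SPINT1, CKB, CRABP2, SLC16A3 and FBXO2 also rose. SPINT1, a membrane inhibitor of the epithelial proteases matriptase and hepsin (chromosome 15, 40844018 to 40858207), went from 4.15, 8.27 and 10.1 to 243, 361 and 274 (log2 fold change 5.21 ± 0.35, adjusted p = 3.11e-05). CKB, the brain-type creatine kinase (chromosome 14, 103519667 to 103522833), was already expressed, with 1303, 1262 and 1313 normalised counts in the controls, and reached 9762, 9623 and 9864 (log2 fold change 2.91 ± 0.11, adjusted p = 3.07e-06). CRABP2, which carries retinoic acid to its nuclear receptor (chromosome 1, 156699606 to 156705816), went from 73.2, 70.3 and 64.1 to 956, 784 and 1004 (log2 fold change 3.73 ± 0.15, adjusted p = 3.07e-06). In none of the 3 did the groups overlap, and the spread within each group was small against the change. FBXO2, the substrate receptor of a ubiquitin ligase for glycoproteins, rose by a log2 change of 2.86 ± 0.13 (adjusted p = 4.15e-06), and 115 bases of its exons are shared with its neighbour FBXO44.

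SLC16A3 encodes MCT4, a monocarboxylate transporter of lactate and other short acids (chromosome 17, 82217934 to 82261129). Its normalised counts were 1198, 1442 and 1464 in Control 24 h, 2780.1, 3109 and 2380.4 in SP 3 h and 12154, 11820 and 12070 in SP 24 h (log2 fold change 3.13 ± 0.13, adjusted p = 3.07e-06). The 3 groups formed 3 steps with no overlap, and SP 24 h lay 2.12 above SP 3 h on the log2 scale (adjusted p = 6.39e-05). Its exons share 543 bases with its neighbour CSNK1D.

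**Figure D2:**
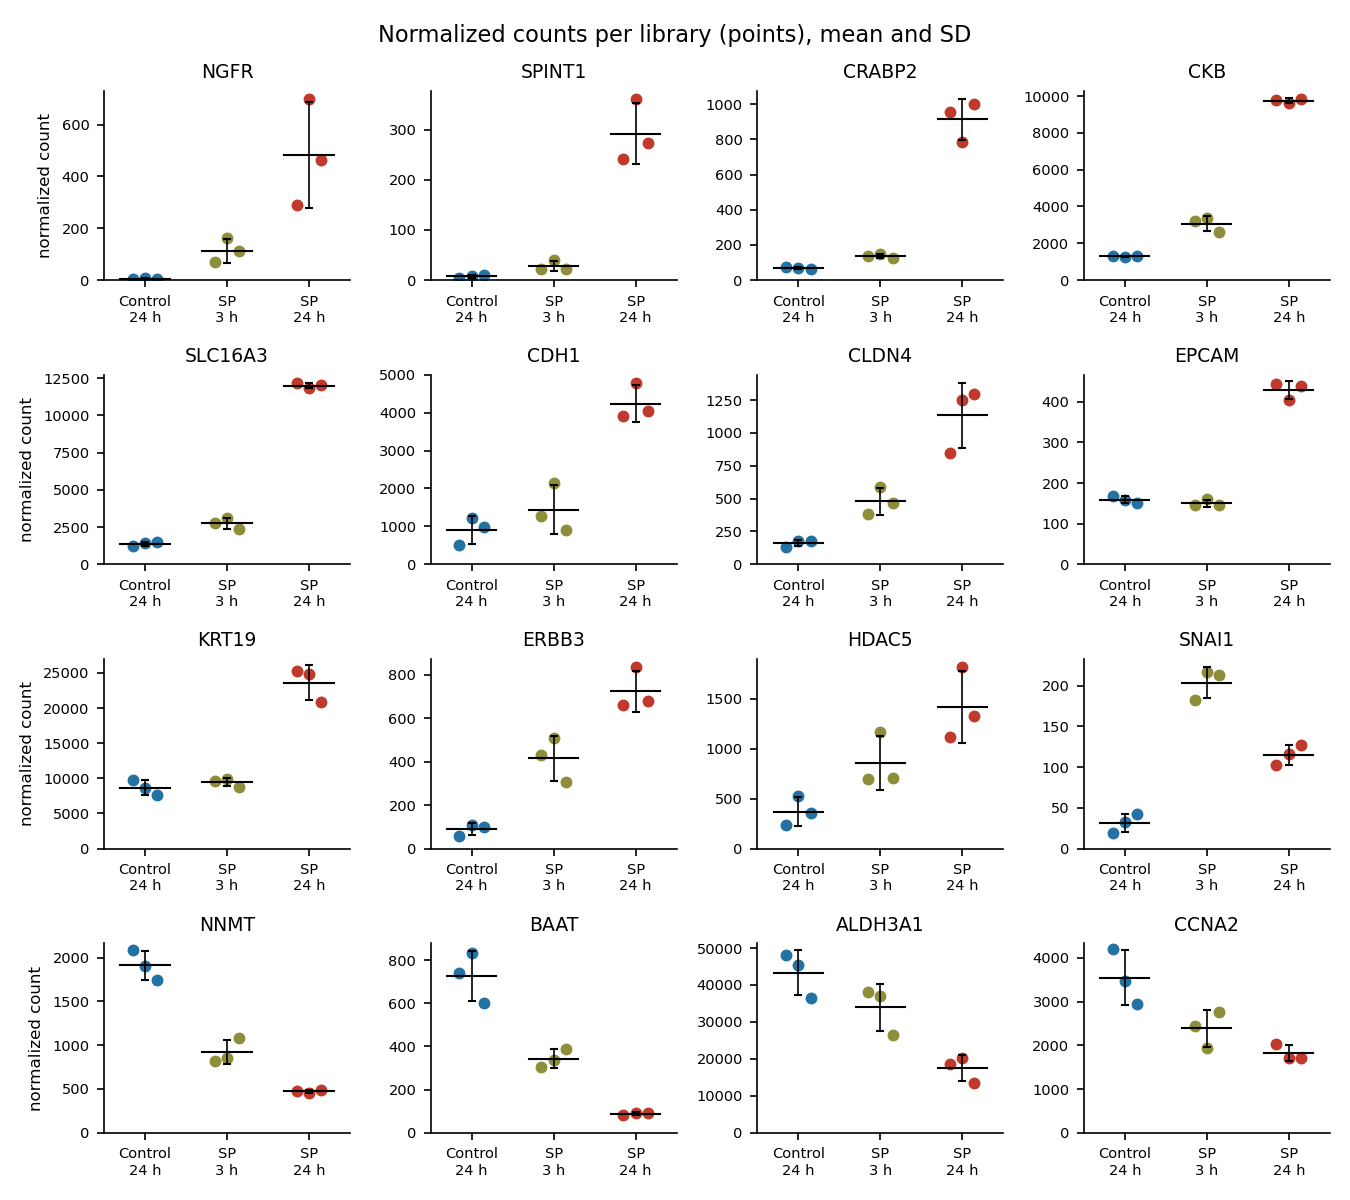
Normalised counts (linear axis from 0) of 16 genes in each Control 24 h, SP 3 h and SP 24 h library, with points for libraries and bars for the mean and SD of 3. NGFR, SPINT1, CRABP2, CKB and SLC16A3 show a stepwise rise, SNAI1 is highest at 3 h, and NNMT, BAAT, ALDH3A1 and CCNA2 are lower at 24 h than in the controls.

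The 11 genes of the stricter class that fell include enzymes and chromatin proteins. BAAT, the liver enzyme that conjugates bile acids to glycine or taurine (chromosome 9, 101354182 to 101385400), had normalised counts of 739, 833 and 603 in Control 24 h and 83.4, 93.5 and 90.8 in SP 24 h (log2 fold change -3.02 ± 0.17, adjusted p = 1.62e-05). NNMT, nicotinamide N-methyltransferase, which is often high in mesenchymal cells (chromosome 11, 114257787 to 114313536), went from 2082, 1907 and 1748 to 478, 457 and 486 (log2 fold change -2.01 ± 0.13, adjusted p = 3e-05). AVEN, a caspase activation inhibitor, fell from 1228, 972 and 1094 to 272, 238 and 284 (log2 fold change -2.05 ± 0.15, adjusted p = 4.24e-05). In each of the 3 every treated library was below every control. EFCAB2, an EF-hand protein, changed by a log2 fold change of -2.80 ± 0.22, ST6GAL2, a sialyltransferase, by -1.91 ± 0.13, KCTD15, a BTB-domain protein, by -1.73 ± 0.15, and TP53I3, a p53-induced quinone oxidoreductase, by -1.66 ± 0.13. PHF19, a Polycomb-like subunit of PRC2 that reads histone methylation, changed by a log2 change of -1.63 ± 0.12, ADI1, an enzyme of methionine salvage, by -1.63 ± 0.13, HMGN2, a nucleosome-binding protein, by -1.22 ± 0.10, and PCBD1, a pterin dehydratase and HNF1 cofactor, by -1.02 ± 0.09. HMGN2 has 38 annotated pseudogenes, among which its reads could be split.

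Promoters of 5 genes are printed below, SPINT1, CGN, CKB and SLC16A3 among the higher genes and HMGN2 among the lower ones, as the 250 bases before the annotated start (RefSeq, GRCh38.p14, sense strand). The 5 were picked by hand, and all but CGN were in the stricter class. Capitals mark GGGCGG, the GC box bound by Sp factors, or CGGAAG, the core bound by ETS factors, on either strand, so that they also appear as CCGCCC or CTTCCG, and both motifs can share bases where they meet. The positions are chr15:40843798-40844047 on the plus strand for SPINT1, chr1:151511137-151511386 plus for CGN, chr14:103522831-103523080 minus for CKB, chr17:82228185-82228434 plus for SLC16A3 and chr1:26472190-26472439 plus for HMGN2. Only 1 start was taken per gene, here and in the motif shares below. The SLC16A3 window lies inside the gene span given above, before an internal start.
SPINT1: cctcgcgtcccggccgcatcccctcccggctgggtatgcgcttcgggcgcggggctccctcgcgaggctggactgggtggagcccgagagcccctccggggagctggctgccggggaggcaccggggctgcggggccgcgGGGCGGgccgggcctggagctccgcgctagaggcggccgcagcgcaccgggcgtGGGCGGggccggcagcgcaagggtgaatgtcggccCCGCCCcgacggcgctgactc
CGN: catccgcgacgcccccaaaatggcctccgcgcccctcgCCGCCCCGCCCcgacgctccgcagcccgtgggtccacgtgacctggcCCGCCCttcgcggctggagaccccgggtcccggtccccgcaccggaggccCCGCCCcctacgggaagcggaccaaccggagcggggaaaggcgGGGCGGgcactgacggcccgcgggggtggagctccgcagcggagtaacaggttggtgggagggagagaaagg
CKB: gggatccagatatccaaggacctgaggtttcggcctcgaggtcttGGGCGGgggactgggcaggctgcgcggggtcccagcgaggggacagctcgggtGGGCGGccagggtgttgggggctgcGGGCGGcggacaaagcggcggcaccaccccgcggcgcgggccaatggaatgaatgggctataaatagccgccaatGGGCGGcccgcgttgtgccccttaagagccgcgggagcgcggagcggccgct
SLC16A3: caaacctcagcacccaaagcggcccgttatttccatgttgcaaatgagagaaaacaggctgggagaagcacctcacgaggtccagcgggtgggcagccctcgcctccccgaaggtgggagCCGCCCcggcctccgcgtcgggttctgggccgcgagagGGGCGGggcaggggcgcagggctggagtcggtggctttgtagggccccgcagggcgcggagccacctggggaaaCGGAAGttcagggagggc
HMGN2: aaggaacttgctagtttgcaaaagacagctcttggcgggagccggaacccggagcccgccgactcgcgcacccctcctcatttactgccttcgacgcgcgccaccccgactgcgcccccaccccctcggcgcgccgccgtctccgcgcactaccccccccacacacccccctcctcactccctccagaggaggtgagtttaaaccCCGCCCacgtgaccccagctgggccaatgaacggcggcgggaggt
The SPINT1 window holds 3 GGGCGG matches, CGN 5, of which 2 overlap, CKB 4, SLC16A3 2 and HMGN2 1, with 35, 32, 27, 20 and 25 CpG dinucleotides in that order. CGGAAG occurs once, in SLC16A3.

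A promoter window was found for 11939 of the 17372 tested symbols; CDH1, EPCAM, KRT19, NGFR, STAC2 and NNMT have none in the table. GGGCGG was in 42.3% of all 27305 promoters in the table and in 66.2% of those of tested genes, in 70.9% of the promoters of higher genes and in 62.9% of those of lower genes. CGGAAG was in 16.8% of all promoters and in 26.6% of those of tested genes, but in 15.4% of the promoters of higher genes against 28.5% of those of lower genes and 28.8% of those that passed in neither direction. The lower share among higher genes was also seen among weakly and strongly expressed genes taken apart, at 13.2% against 21.7% of all among genes below the median level, and at 20.2% against 31.4% among those above it. The median number of CpG dinucleotides was 20 for higher genes, 20 for lower genes and 21 for all. These are counts of letters in a fixed window, given without a test.

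Epithelial junction genes were more often higher than lower at 24 h. Of the adherens and tight junction and polarity genes, 16 of 31 tested members were higher and 1 was lower (14 and 5 with the GC offset, 13 and 1 in every leave-one-out fit), and their median log2 fold change was 0.65 against -0.01 for all genes. CDH1, which encodes E-cadherin (chromosome 16, 68737292 to 68835537), had normalised counts of 507, 1214 and 994 in Control 24 h, 1272, 2148 and 907 in SP 3 h and 3900, 4786 and 4037 in SP 24 h (log2 fold change 2.23 ± 0.37, adjusted p = 0.00265). The treated libraries at 24 h all lay above the controls, while those at 3 h overlapped them, and Control 24 h replicate 1 was the lowest control. EPCAM, an epithelial adhesion molecule (chromosome 2, 47345158 to 47387601), went from 167, 159 and 150.1 to 445, 404 and 439 (log2 fold change 1.44 ± 0.12, adjusted p = 8.66e-05) and was at 145, 160.0 and 146 at 3 h, overlapping the controls. CLDN4, a claudin of tight junctions, went from 133, 174 and 176 to 850.1, 1252 and 1298 (log2 fold change 2.82 ± 0.22, adjusted p = 6.8e-05), and CLDN7 rose by 4.01 ± 0.44. CGN, the tight junction scaffold cingulin, rose by a log2 change of 2.61 ± 0.24, and CDH3, P-cadherin, by 2.56 ± 0.51. CTNNB1, the β-catenin that links cadherins to actin, was the 1 lower member at a log2 change of -0.39 ± 0.09. CDH1 shares 347 exon bases with a lncRNA gene on the other strand and CDH3 537 with CDH3-AS1.

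Among desmosome genes, 3 of 10 tested members were higher and 2 were lower (3 and 0 in the blocked fit, 2 and 0 in every leave-one-out fit), and the members that held in every leave-one-out fit were PPL, periplakin, at a log2 change of 1.51 ± 0.31 and JUP, plakoglobin, at 1.30 ± 0.30 (adjusted p = 0.0622 without a filter on low counts). Of the epithelial transcription and splicing factors, 6 of 12 tested members were higher and 0 were lower (4 and 2 with the GC offset, 2 higher without Control 24 h replicate 1 or SP 24 h replicate 2). OVOL2, a repressor of EMT, rose by a log2 change of 2.78 ± 0.47 and GRHL1, a grainyhead activator of junction genes, by 1.55 ± 0.16. The splicing regulators ESRP1 and ESRP2 had 1 and 21 reads in all controls and 41 and 39 in SP 24 h, too few to be tested. Of the keratins, 5 of 12 tested members were higher and 2 were lower (2 and 3 with the GC offset). KRT19 went from 9787, 8634 and 7603 to 25207, 24854 and 20840 (log2 fold change 1.45 ± 0.12, adjusted p = 9.14e-05) and has 5 pseudogenes, and KRT20, a keratin of gastrointestinal epithelium, rose by 4.31 ± 0.53. KRT8 and KRT18, the keratin pair of simple epithelia, were higher by a log2 change of 0.79 ± 0.13 and 0.63 ± 0.12, and with the GC offset their adjusted p was 0.052 and 0.102. The 2 have 51 and 68 pseudogenes, and their exons overlap by 525 bases. KRT81 and KRT86, hair keratins, were lower at a log2 change of -0.82 ± 0.11 and -0.83 ± 0.13.

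Of the EMT transcription factors, 1 of 11 tested members was higher and 2 were lower (1 and 5 with the GC offset, 2 and 2 in the blocked fit). SNAI1, a repressor of CDH1, was higher, with 19.3, 33.1 and 42.1 normalised counts in Control 24 h, 182, 217 and 213 in SP 3 h and 102, 116 and 127 in SP 24 h (log2 fold change 1.84 ± 0.24, adjusted p = 0.000721). ZEB2, also a repressor of CDH1, was lower at a log2 change of -1.28 ± 0.28. ZEB1 had 848, 759.8 and 167 in the controls and 365, 149 and 157 in SP 24 h (log2 fold change -1.41, adjusted p = 0.147, and 0.0571 with the replicate block). Its groups overlapped, with Control 24 h replicate 3 in the range of the treated libraries, and without that library the log2 fold change was -1.86 (adjusted p = 0.0294). That library was singled out after its value was seen, and the highest adjusted p of ZEB1 without 1 library was 0.377.

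Of the mesenchymal and TGF-β target genes, 4 of 33 tested members were higher and 5 were lower (5 and 13 with the GC offset, 6 and 9 in the blocked fit, 8 higher without Control 24 h replicate 3). As fitted, these shares were near the 16.8% and 12.0% of all tested genes. With the GC offset the share of lower members was above the 24.7% of all tested genes. Besides NNMT, VIM, the intermediate filament vimentin, was lower (28998, 26700 and 30322 against 18540, 18098 and 18331, log2 fold change -0.65 ± 0.09, adjusted p = 0.00109), and TPM1, an actin-binding tropomyosin, was lower at -0.87 ± 0.17. SPARC, a matricellular protein, was higher by a log2 change of 2.34 ± 0.33, MYL9, a myosin light chain of contractile cells, by 2.30 ± 0.33, and ITGA5, the fibronectin receptor subunit, by 1.63 ± 0.23. CDH2, N-cadherin, stood at a log2 change of 0.07 ± 0.16 (adjusted p = 0.775). FN1, fibronectin, stood at a log2 change of 1.11 ± 0.58 (adjusted p = 0.183, and 0.0312 with the replicate block).

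Matrix genes rose more often than they fell. Of the collagens, 6 of 19 tested members were higher and 0 were lower (5 and 1 with the GC offset, 3 higher without SP 24 h replicate 3, 14 higher without Control 24 h replicate 3), with COL1A1 at a log2 change of 2.48 ± 0.45, COL6A2 at 1.73 ± 0.34 and COL6A1 at 1.38 ± 0.30. Of the laminins and integrins, 7 of 22 tested members were higher and 1 was lower (11 and 1 in the blocked fit, 2 and 0 in every leave-one-out fit, 12 higher without Control 24 h replicate 3). LAMA1, the laminin α1 chain, had 0 reads in the 3 controls together and 79 in SP 24 h, which is at least 17.6-fold higher against a floor of 3 reads over the group, and ITGA7, a laminin receptor, rose by a log2 change of 2.24 ± 0.23. Of the proteases and plasminogen genes, 7 of 18 tested members were higher and 2 were lower (5 and 5 with the GC offset), led by SPINT1 and by KLK10, a kallikrein, at a log2 change of 4.42 ± 0.54. MMP15, a membrane metalloproteinase, rose by a log2 change of 2.33 ± 0.25 and PLAT, tissue plasminogen activator, by 2.02 ± 0.18, and MMP24 was lower at -0.84 ± 0.16.

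Genes that respond to histone deacetylase inhibitors in many cells were mostly higher. Of those in the list, 11 of 17 tested members were higher and 2 were lower (12 and 3 with the GC offset, 11 and 1 in every leave-one-out fit), with a median log2 fold change of 0.98. DHRS2, a short-chain dehydrogenase known for induction by butyrate, rose by a log2 change of 4.42 ± 0.40, and ALPP, a placental alkaline phosphatase, by 2.58 ± 0.60. CDKN1C, the cyclin-dependent kinase inhibitor p57, rose by a log2 change of 2.20 ± 0.21 and SYT11, a synaptotagmin, by 1.73 ± 0.36.

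Histone genes were more often lower than higher. Of the histone genes, 1 of 20 tested members was higher and 6 were lower (1 and 9 with the GC offset). H2BC12 was lower at a log2 change of -1.44 ± 0.19, H2AC6 at -1.36 ± 0.14 and H2AZ1, the variant H2A.Z, at -0.73 ± 0.16. Of the acetylation writers, erasers and readers, 6 of 32 tested members were higher and 6 were lower (2 and 12 with the GC offset, 3 and 1 in every leave-one-out fit). HDAC5, a class IIa deacetylase, went from 234, 521 and 354 to 1114, 1818 and 1327 (log2 fold change 1.94 ± 0.33, adjusted p = 0.00279), SIRT4, a mitochondrial sirtuin, rose by 1.95 ± 0.25, and KAT6B, an acetyltransferase, was lower at -0.91 ± 0.15. HDAC5 shares 1826 exon bases with G6PC3. Of the Polycomb and DNA methylation genes, 4 of 26 tested members were higher and 1 was lower (2 and 6 with the GC offset, 6 and 4 in the blocked fit, 7 higher without Control 24 h replicate 3), with the de novo methyltransferase DNMT3B at a log2 change of 1.09 ± 0.16 beside the fall of PHF19. As fitted, the share of higher members in this list was near the 16.8% of all tested genes.

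Of the enzymes that handle propionate itself, the propionyl-CoA genes, 3 of 20 tested members were higher and 2 were lower (3 and 6 with the GC offset), shares near the 16.8% and 12.0% of all tested genes. ABAT, the transaminase of β-alanine and GABA, rose from 19.3, 23.4 and 10.98 to 95.04, 166 and 106 (log2 fold change 2.82 ± 0.38, adjusted p = 0.000784), and ACSS2, which activates short-chain acids in the cytosol, rose by 0.71 ± 0.12. MMAB, which makes the cobalamin cofactor of methylmalonyl-CoA mutase, was lower at a log2 change of -0.69 ± 0.13. PCCA and PCCB, the subunits of propionyl-CoA carboxylase, stood at a log2 change of -0.08 ± 0.15 and -0.24 ± 0.10 (adjusted p = 0.689 and 0.098). Of the short-chain fatty acid transporters and receptors, 3 of 9 tested members were higher and 0 were lower (2 and 0 with the GC offset). Beside SLC16A3, its chaperone BSG (basigin) was higher by a log2 change of 0.80 ± 0.11 but had an adjusted p of 0.182 with the GC offset, and SLC16A1, the transporter MCT1, stood at -0.22 ± 0.14 (adjusted p = 0.26).

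Fatty acid oxidation and PPAR genes included 8 rises. In that list, 8 of 25 tested members were higher and 0 were lower (9 and 1 with the GC offset, 6 and 0 in every leave-one-out fit). CREB3L3, a hepatic and intestinal regulator of lipid oxidation, went from 4.15, 2.76 and 1.83 to 109.8, 112 and 96.95 (log2 fold change 5.20 ± 0.35, adjusted p = 3.24e-05), PDK4, which restrains pyruvate oxidation, rose by 1.47 ± 0.32, and PPARA, the nuclear receptor of fatty acids, by 1.42 ± 0.27. CPT1C and CPT1A, carnitine palmitoyltransferases, rose by a log2 change of 1.36 ± 0.13 and 1.13 ± 0.21. Of the fatty acid synthesis genes, 2 of 13 tested members were higher and 1 was lower (2 and 2 with the GC offset, 0 higher without a filter on low counts, 5 higher without Control 24 h replicate 3), with SREBF1, the transcription factor of lipogenesis, at a log2 change of 1.78 ± 0.39 (adjusted p = 0.0571 without a filter on low counts). As fitted, the share of higher members in this list was near the 16.8% of all tested genes. Of the cholesterol genes, 5 of 25 tested members were higher and 5 were lower (2 and 11 with the GC offset, 2 higher without Control 24 h replicate 1, SP 24 h replicate 1 or SP 24 h replicate 2, 2 lower without Control 24 h replicate 1, SP 24 h replicate 2 or SP 24 h replicate 3, 9 lower without Control 24 h replicate 3), with the sterol reductase TM7SF2 at a log2 change of 1.74 ± 0.18 and the thiolase ACAT2, which shares exon bases with TCP1, at -1.05 ± 0.14. Of the glycolysis and hypoxia genes, 9 of 32 tested members were higher and 4 were lower (9 and 6 with the GC offset, 7 and 0 in every leave-one-out fit). The glucose transporter SLC2A3 rose by a log2 change of 2.29 ± 0.23, the aldolase ALDOC by 2.17 ± 0.23 and the hexokinases HK2 and HK1 by 1.51 ± 0.21 and 0.97 ± 0.09. Of the MondoA system, 1 of 6 tested members was higher and 0 were lower (2 and 0 with the GC offset, 2 and 1 in the blocked fit), namely MLXIPL, the carbohydrate response factor ChREBP, at a log2 change of 3.26 ± 0.42.

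Respiratory chain genes differed by small amounts. Of the mitochondrially encoded genes, 4 of 15 tested members were higher and 0 were lower (0 and 0 in every leave-one-out fit). The share of reads on these genes was 3.15% to 3.64% in Control 24 h and 3.58% to 4.11% in SP 24 h, which overlap. Of the nuclear-encoded subunits, 1 of 44 tested members was higher and 11 were lower (0 and 17 with the GC offset, 1 and 0 in every leave-one-out fit), with a median log2 fold change of -0.27.

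Antioxidant genes under NRF2, a pathway that A549 cells keep active because they carry mutant KEAP1, were lower more often than higher. Of the NRF2 targets and NADPH genes, 1 of 30 tested members was higher and 11 were lower (0 and 18 with the GC offset, 0 and 7 in every leave-one-out fit). OSGIN1, an oxidative stress growth inhibitor, was lower at a log2 change of -1.18 ± 0.11, AKR1B10, an aldo-keto reductase, at -0.997 ± 0.14, GCLC and GCLM, the subunits of the ligase that begins glutathione synthesis, at -0.92 ± 0.11 and -0.80 ± 0.14, and KEAP1 itself, the repressor of NRF2, at -1.02 ± 0.12. Of the aldehyde dehydrogenases, 5 of 16 tested members were higher and 5 were lower (2 higher without SP 24 h replicate 2). ALDH3A1 went from 48209, 45397 and 36459 to 18512, 20310 and 13473 (log2 fold change -1.31 ± 0.19, adjusted p = 0.00122) and ALDH1A1, a marker of stem-like cells, from 186630, 199940 and 162540 to 123590, 126070 and 121630 (log2 fold change -0.56 ± 0.11, adjusted p = 0.00594). ALDH1A2 and ALDH1A3, which make retinoic acid, were higher by a log2 change of 3.11 ± 0.74 and 0.97 ± 0.23.

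Of the cytochromes P450 and xenobiotic receptors, 11 of 20 tested members were higher and 0 were lower (3 and 0 in every leave-one-out fit). CYP1A1, the classical target of the aryl hydrocarbon receptor, rose by a log2 change of 3.11 ± 0.32, AHRR, the repressor of that receptor, by 1.63 ± 0.24, and CYP27B1, which activates vitamin D, by 1.38 ± 0.18. Of the ABC transporters, 8 of 22 tested members were higher and 2 were lower (8 and 6 with the GC offset, 5 higher without Control 24 h replicate 1 or SP 24 h replicate 2), with ABCA7 and ABCG1, lipid exporters, at a log2 change of 2.11 ± 0.43 and 2.11 ± 0.39. Of the ATF4 and unfolded protein response genes, 5 of 30 tested members were higher and 6 were lower (2 and 12 with the GC offset). ATF5, a stress transcription factor, was lower at a log2 change of -1.94 ± 0.18, NUPR1 at -1.20 ± 0.22 and the serine synthesis enzymes PSPH and PSAT1 at -0.76 ± 0.09 and -0.68 ± 0.10. Of the heat shock and metallothionein genes, 5 of 20 tested members were higher and 6 were lower (2 lower without SP 24 h replicate 2). HSPA8 and DNAJA1, a constitutive chaperone and its cochaperone, were lower at a log2 change of -0.86 ± 0.16 and -0.81 ± 0.16, whereas HSPA2, a testis-enriched chaperone, and MT1F, a metallothionein, were higher by 1.04 ± 0.16 and 0.89 ± 0.14.

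Cell cycle genes were more often lower than higher. Of the mitosis and G2/M genes, 0 of 32 tested members were higher and 13 were lower (0 and 18 with the GC offset, 1 and 20 in the blocked fit, 0 and 5 in every leave-one-out fit, 21 lower without Control 24 h replicate 3), and the median log2 fold change was -0.54. CCNA2, cyclin A2, had 4206, 3481 and 2952 normalised counts in Control 24 h and 2041, 1719.6 and 1707 in SP 24 h (log2 fold change -0.96 ± 0.17, adjusted p = 0.00286), with no overlap. AURKA, the spindle kinase Aurora A, was lower at a log2 change of -0.83 ± 0.13, CCNB1, cyclin B1, at -0.71 ± 0.13 and PLK1, the Polo-like kinase, at -0.59 ± 0.12. Of the DNA replication and G1/S genes, 2 of 39 tested members were higher and 6 were lower (0 and 17 with the GC offset, 2 and 15 in the blocked fit, 0 and 2 in every leave-one-out fit, 12 lower without Control 24 h replicate 3). As fitted, that share of lower members was near the 12.0% of all tested genes, and with the GC offset it was above their 24.7%. TYMS, thymidylate synthase, was lower at a log2 change of -1.08 ± 0.15 and UNG, the uracil glycosylase, at -0.62 ± 0.14. Of the homologous recombination and crosslink repair genes, 0 of 28 tested members were higher and 4 were lower (1 and 9 with the GC offset, 0 and 8 in the blocked fit, 0 and 0 in every leave-one-out fit, 10 lower without Control 24 h replicate 3). Here too the share of lower members was near the 12.0% as fitted and above the 24.7% with the GC offset.

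Of the CDK inhibitors and p53 targets, 1 of 29 tested members was higher and 8 were lower (1 and 15 with the GC offset, 1 and 2 in every leave-one-out fit), where the rise was that of CDKN1C and the falls included TP53I3 and CDKN2C, the inhibitor p18, at a log2 change of -0.78 ± 0.09. A549 cells have intact p53 and lack CDKN2A. Of the BCL2 family and caspases, 3 of 27 tested members were higher and 5 were lower (2 and 11 with the GC offset, 3 and 8 in the blocked fit). BMF, a BH3-only protein that binds BCL2, went from 24.9, 26.2 and 15.6 to 170.0, 438 and 226 (log2 fold change 3.68 ± 0.43, adjusted p = 0.000424), and BIK, another BH3-only protein, rose by 1.23 ± 0.20. Of the MYC and ribosome biogenesis genes, 2 of 29 tested members were higher and 8 were lower (2 and 15 with the GC offset, 2 and 15 in the blocked fit, 2 and 1 in every leave-one-out fit), with MYCL and MXI1, a paralog and an antagonist of MYC, higher by a log2 change of 1.51 ± 0.21 and 0.92 ± 0.15 and UTP20, a processing factor of ribosomal RNA, lower at -0.92 ± 0.20. Of the ribosomal proteins, 0 of 41 tested members were higher and 13 were lower (0 and 26 with the GC offset, 0 and 24 in the blocked fit, 0 and 2 in every leave-one-out fit, 20 lower without Control 24 h replicate 3), with a median log2 fold change of -0.35, and RPL10 and RPL30, at -0.72 ± 0.13 and -0.71 ± 0.14, have 19 and 15 pseudogenes. Of the reference genes often used in qPCR, 0 of 15 tested members were higher and 3 were lower (0 and 6 with the GC offset, 0 and 0 in every leave-one-out fit). In bulk samples fewer cells in a phase or state and less RNA per cell cannot be told apart. The study also imaged single cells of this line at the same dose and time of SP. It reports that SP alone changed neither the rate of DNA replication nor the passage between cell cycle phases. It reports unchanged proliferation over a longer course of SP as well. In the same line it also reports changes under SP. Some phosphorylated marks of histones H3 and H1 were lower, and γH2AX, a marker of DNA damage and chromatin stress, was higher in S phase with SP alone. Why cell cycle genes were lower in these libraries was not tested.

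**Figure D3:**
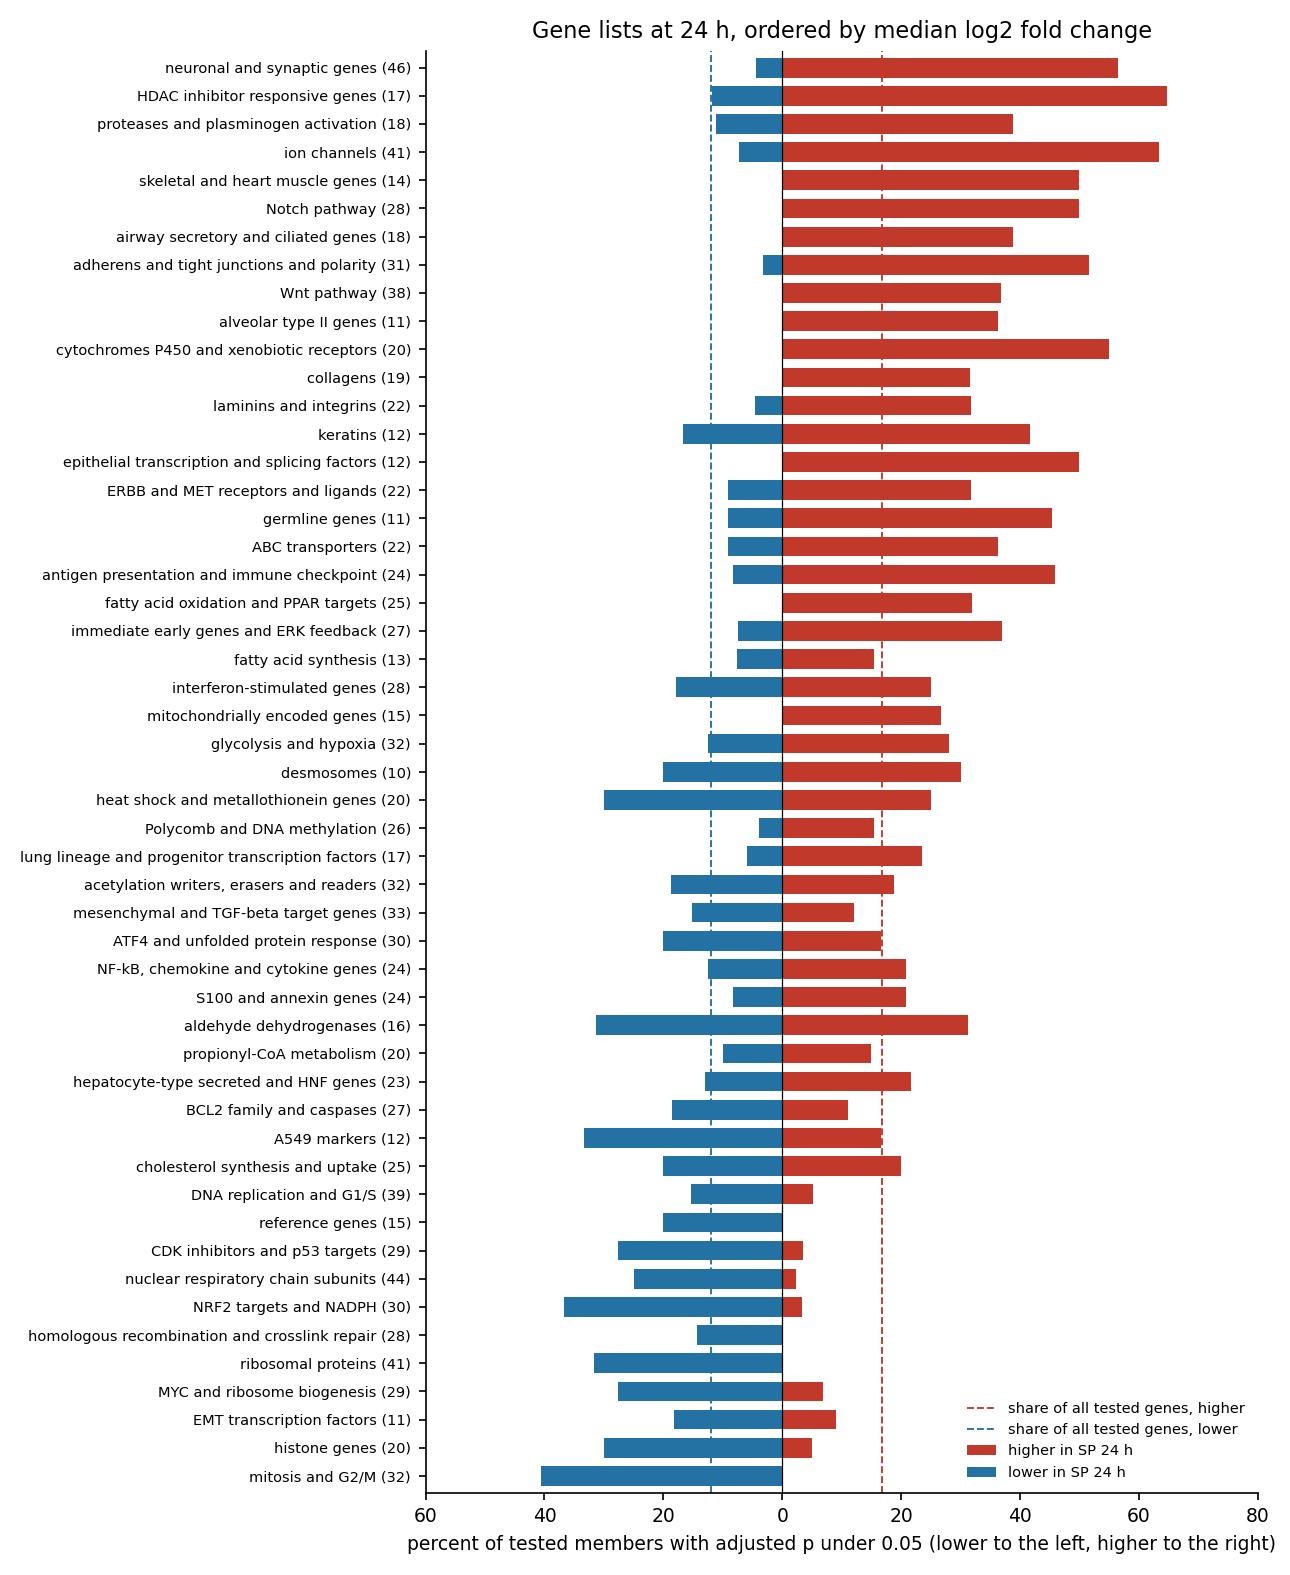
For each gene list with at least 10 tested members, the percent of members that were higher (bars to the right) and lower (bars to the left) in SP 24 h at an adjusted p under 0.05. Dashed lines mark the 16.8% and 12.0% of all tested genes, and the neuronal, ion channel and HDAC inhibitor lists extend furthest to the right while the mitosis and NRF2 lists extend furthest to the left.

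Of the immediate early and ERK feedback genes, 10 of 27 tested members were higher and 2 were lower (5 and 6 with the GC offset, 4 and 1 in every leave-one-out fit), with a median of 0.26 (GC offset -0.03). SPRED3, an inhibitor of RAS signalling, rose by a log2 change of 2.06 ± 0.30, FOS by 0.97 ± 0.20 and the phosphatase DUSP5 by 1.02 ± 0.15, and SPRY2, a feedback inhibitor, was lower at -0.85 ± 0.12. Of the ERBB and MET receptors and ligands, 7 of 22 tested members were higher and 2 were lower (5 and 4 with the GC offset, 11 and 3 in the blocked fit, 4 higher without Control 24 h replicate 2, SP 24 h replicate 1, SP 24 h replicate 2 or SP 24 h replicate 3, 11 higher without Control 24 h replicate 3). ERBB3, the kinase-impaired partner of ERBB2, went from 59.4, 110.3 and 96.997 to 663, 834 and 679 (log2 fold change 3.02 ± 0.26, adjusted p = 9.34e-05), FGFR3 rose by 2.25 ± 0.33, and BTC, the ligand betacellulin, was lower at -1.33 ± 0.25. Of the Wnt genes, 14 of 38 tested members were higher and 0 were lower (12 and 5 with the GC offset, 21 and 2 in the blocked fit, 3 lower without Control 24 h replicate 1). DACT3, a Wnt inhibitor known for silencing by histone modification, rose by a log2 change of 4.33 ± 0.41, NKD2 and NKD1, inhibitors of Dishevelled, by 2.22 ± 0.30 and 1.92 ± 0.25 and the ligand WNT11 by 2.09 ± 0.23. Of the Notch genes, 14 of 28 tested members were higher and 0 were lower (13 and 3 with the GC offset, 17 and 1 in the blocked fit, 11 and 0 in every leave-one-out fit), with a median of 0.80. The HES family members HES2 and HES7 rose by a log2 change of 3.95 ± 0.36 and 3.19 ± 0.21, the ligands DLL4 and DLL1 by 2.61 ± 0.35 and 2.21 ± 0.40, and the receptor NOTCH3 by 2.30 ± 0.57 (adjusted p = 0.0876 without a filter on low counts).

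Of the NF-κB, chemokine and cytokine genes, 5 of 24 tested members were higher and 3 were lower (3 and 6 with the GC offset, 5 and 5 in the blocked fit). As fitted, these shares were near the 16.8% and 12.0% of all tested genes. ICAM1, the leukocyte adhesion molecule, went from 8.29, 9.65 and 13.7 to 87.7, 80.02 and 118 (log2 fold change 3.11 ± 0.39, adjusted p = 0.000497), CCL28, a mucosal chemokine, rose by 2.84 ± 0.69, and CCL2, a monocyte chemokine, was lower at -1.99 ± 0.35. Of the interferon-stimulated genes, 7 of 28 tested members were higher and 5 were lower (6 and 7 with the GC offset, 2 lower without Control 24 h replicate 2, SP 24 h replicate 1 or SP 24 h replicate 3), with BST2, tetherin, at a log2 change of 4.31 ± 0.65, ISG15 at 2.08 ± 0.19 and OASL at 1.83 ± 0.19, whereas USP18, which removes ISG15, was lower at -0.90 ± 0.13. Of the antigen presentation and checkpoint genes, 11 of 24 tested members were higher and 2 were lower (10 and 4 with the GC offset, 12 and 4 in the blocked fit, 8 and 1 in every leave-one-out fit). HLA-B rose by a log2 change of 1.33 ± 0.11 and HLA-F by 1.87 ± 0.16, and ULBP2 and MICB, ligands of the NK receptor NKG2D, by 1.69 ± 0.16 and 0.94 ± 0.14. PSMB8, an immunoproteasome subunit, was lower at a log2 change of -0.53 ± 0.12.

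Tested genes known from nerve and muscle were often higher. Of 57 neuronal genes 46 were tested, of 52 ion channels 41, of 35 muscle genes 14 and of 34 germline genes 11. Of the neuronal and synaptic genes, 26 of 46 tested members were higher and 2 were lower (23 and 5 with the GC offset, 20 and 1 in every leave-one-out fit), with a median log2 fold change of 0.99. NRXN2, a presynaptic adhesion molecule, had 2.76, 1.38 and 2.75 normalised counts in Control 24 h and 93.99, 106 and 87.3 in SP 24 h (log2 fold change 5.28 ± 0.35, adjusted p = 3e-05), SYT7 rose by 3.13 ± 0.24 and the neurofilament NEFL by 2.82 ± 0.16. NEFM had 3 reads in all controls and 74 in SP 24 h, a ratio of 16.5 (exact 95% interval 5.44 to 82, counting error alone). Of the ion channels, 26 of 41 tested members were higher and 3 were lower (22 and 5 with the GC offset, 22 and 2 in every leave-one-out fit), with a median of 0.95. KCNJ4, a potassium channel, rose by a log2 change of 4.42 ± 0.45 and KCNH2, the cardiac hERG channel, by 3.19 ± 0.29, whereas KCNH1 and KCNF1 were lower at -1.46 ± 0.26 and -1.47 ± 0.29. Of the skeletal and heart muscle genes, 7 of 14 tested members were higher and 0 were lower (5 and 2 with the GC offset), with TNNC1 and TNNI3, troponin subunits, at a log2 change of 3.13 ± 0.22 and 1.88 ± 0.21. Of the germline genes, 5 of 11 tested members were higher and 1 was lower (4 and 2 with the GC offset, 2 and 0 in every leave-one-out fit), and ODF3B, an outer dense fibre gene, rose by a log2 change of 0.996 ± 0.23 with an adjusted p of 0.664 under the GC offset. Of the S100 and annexin genes, 5 of 24 tested members were higher and 2 were lower (5 and 7 with the GC offset, 5 and 6 in the blocked fit), with S100A14 at a log2 change of 2.87 ± 0.65, ANXA6 at 1.58 ± 0.11 and S100P at 1.29 ± 0.23. S100A14 rests on few reads, with mean normalised counts of 1.53 in Control 24 h and 11.9 in SP 24 h.

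The share of higher members was above the 16.8% of all tested genes in 3 small lists of lung genes, and with the GC offset it was above the 14.2% of all tested genes for the alveolar type II and airway lists but not for the lineage factors. Of 19 alveolar type II genes 11 were tested, of 30 airway genes 18 and of 21 lineage factors 17. Of the alveolar type II genes, 4 of 11 tested members were higher and 0 were lower, with a median of 0.58 (GC offset -0.03). SFTPC, surfactant protein C, had 1 read in all controls and 69 in SP 24 h, a ratio of 46.2 (exact 95% interval 8.03 to 1850), LAMP3, a lamellar body protein, rose by a log2 change of 2.45 ± 0.37 and CTSH, which processes surfactant, by 1.21 ± 0.14. CEBPA was at a log2 change of 0.68 ± 0.15, and at -0.07 (adjusted p = 0.68) with the GC offset. Of the members not tested, SFTPB had 7 reads in the controls and 8 in SP 24 h, and SFTPD had 7 in each. SFTPA1, SFTPA2 and HOPX had at most 1 read in either group, whereas SLC34A2 and PGC went from 1 read each to 16 and 9. Of the airway secretory and ciliated genes, 7 of 18 tested members were higher and 0 were lower (7 and 1 with the GC offset, 3 and 0 in every leave-one-out fit), and the members that held in every such fit were FOXA3 (log2 fold change 0.99 ± 0.18), RFX2 (0.94 ± 0.16) and TUBA1A (0.72 ± 0.10). Among airway members not tested, SCGB1A1, SCGB3A2 and TFF3 had 0 reads in both groups. MUC4, WFDC2, DNAI1 and PIGR, also not tested, went from 7, 0, 5 and 0 reads to 37, 18, 31 and 10. Of the lung lineage transcription factors, 4 of 17 tested members were higher and 1 was lower (2 and 5 with the GC offset, 5 and 3 in the blocked fit, 2 and 0 in every leave-one-out fit), with TBX4 at a log2 change of 2.58 ± 0.35 and GATA6 at 1.04 ± 0.18. NKX2-1, the lung lineage factor, had 1 read in the controls and 27 in SP 24 h and was not tested. Of the hepatocyte-type secreted and HNF genes, 5 of 23 tested members were higher and 3 were lower (6 and 6 with the GC offset, 8 and 6 in the blocked fit). As fitted, these shares were near the 16.8% and 12.0% of all tested genes. APOE, the lipoprotein E, went from 71.8, 48.3 and 60.4 to 511, 345 and 629 (log2 fold change 3.04 ± 0.26, adjusted p = 9.66e-05), SERPINA5, a protease inhibitor, rose by 2.99 ± 0.61 and complement C3 by 2.74 ± 0.36, and HNF4G and HABP2, a nuclear receptor and a plasma protease, were lower at -2.06 ± 0.36 and -2.05 ± 0.43.

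Of the genes that the study names, 11 of 23 tested members were higher and 4 were lower (11 and 4 in every leave-one-out fit). That list was chosen by the study on these samples among others and is not independent evidence of its direction. SCUBE1, a secreted EGF-repeat protein, had 0 reads in the 3 controls and 522 in SP 24 h, at least 117-fold higher. GPR4, a proton-sensing receptor, had 0 and 201 reads, at least 44.9-fold higher, each against a floor of 3 reads over the group. ESPN, the actin bundler espin, had 1 and 668 reads, a ratio of 448 (exact 95% interval 80.1 to 17700).

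Markers of other cell types were checked because COL1A1, THY1 and CD14 were among the rises. Of 9 fibroblast markers 6 were tested and 3 were higher, and their summed normalised counts were 227 to 667 in the Control 24 h libraries and 2138 to 2823 in the SP 24 h libraries. DCN and POSTN had 0 reads in every library, COL1A2 had 1 read in each of these 2 groups, and PDGFRB went from 3 reads to 55, a ratio of 12.3 (exact 95% interval 3.99 to 61.4). THY1 rose by a log2 change of 2.97 ± 0.19. Of 7 endothelial markers 1 was tested and it did not pass, with summed counts of 17.9 to 26.5 in Control 24 h and 18 to 46.1 in SP 24 h. Of 8 blood cell markers 2 were tested and 1, CD14, was higher at a log2 change of 2.22 ± 0.22, with summed counts of 92.6 to 114 in Control 24 h and 388 to 447 in SP 24 h, while PTPRC, CD3E and HBB had 0 reads in every library.

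Among tested genes the direction of change went with their level and GC content. The filter on low counts kept genes near silent in untreated cells only where some other group had enough reads, which favours rises at low levels. Sorted into 6 classes by their level in Control 3 days, an experiment that shares no library with this one, genes of the lowest class were higher in 26.7% and lower in 2.59% of cases, with a median log2 fold change of 0.40, and those of the highest class in 10.7% and 15.6% (7.01% and 36.3% with the GC offset), with a median of -0.06. Sorted into 5 classes by GC content, genes with a GC content of 27.8% to 41% were higher in 4.12% and lower in 13.6% (9.57% and 11.9% with the GC offset), with a median of -0.35, and genes with 58.2% to 79.8% were higher in 33.3% and lower in 5.85% (19.1% and 35.7%), with a median of 0.37. With the GC offset those medians were -0.08 and -0.23, while the lowest and highest expression classes had medians of 0.31 and -0.23. Among chromosomes the share of higher genes was 10.9% to 29.5%, with chromosome 19 at the top (29.5% higher, 7.49% lower). With the GC offset the balance on chromosome 19 turned, to 22% higher and 28.6% lower, and its median went from 0.30 to -0.08. Of lncRNA genes 14.5% were higher and 5.37% lower (14.4% and 9.57% with the GC offset). Of protein-coding genes 18.2% were higher and 13.8% lower, and with the GC offset that balance turned too, to 14.9% and 28.7%. As the GC offset also moves the zero point, these turned balances do not measure GC content alone.

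**Figure D4:**
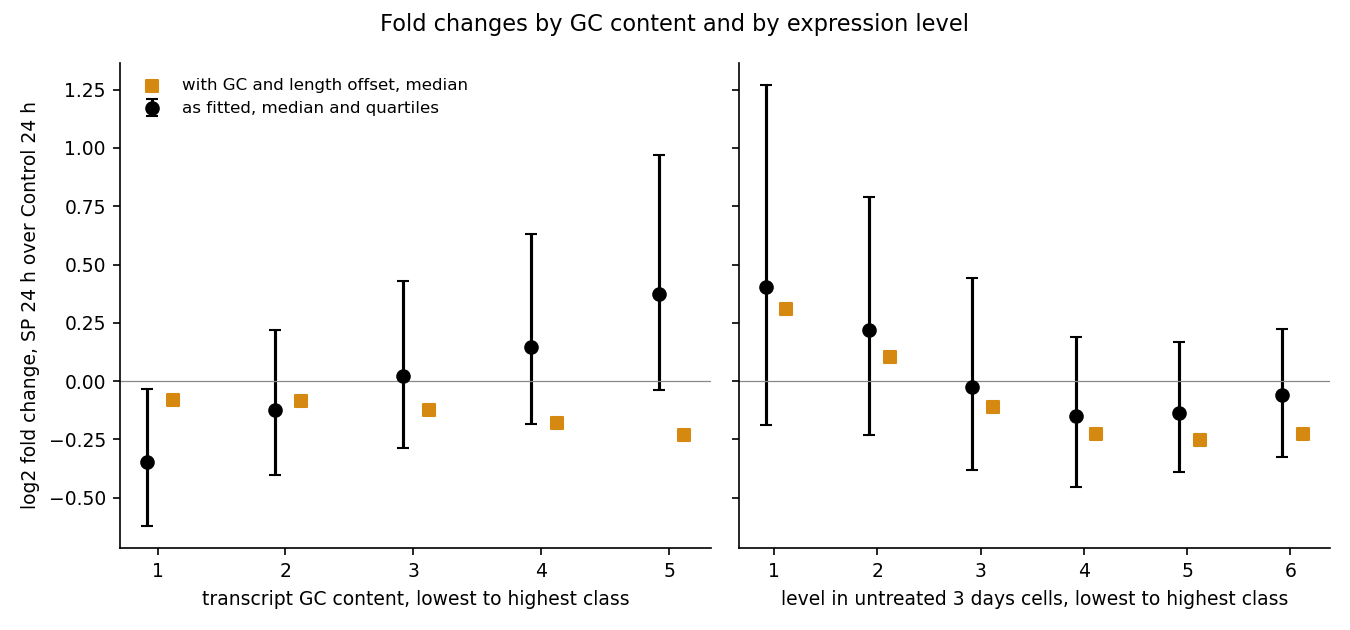
Median log2 fold change of SP 24 h over Control 24 h with the quartiles, for tested genes in 5 classes of GC content and in 6 classes of expression in Control 3 days. The filter on low counts favours rises in the lowest expression class. Circles are the medians as fitted and squares those with the GC offset: the slope over GC content, from -0.35 to 0.37, is replaced by -0.08 to -0.23, whereas the fall from the lowest to the highest expression class remains (0.31 to -0.23).

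Counted without a model, the 3 SP 24 h libraries were all higher than the 3 controls for 4277 genes (24.6%) and all lower for 3443 (19.8%). The junction genes had 19 such rises and 1 such falls among 31, the neuronal genes 27 such rises and 3 such falls among 46, the mitosis genes 1 such rises and 14 such falls among 32 and the ribosomal proteins 0 such rises and 27 such falls among 41.

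SP 24 h was also compared with SP 3 h, which asks what the later hours added. At an adjusted p under 0.05, 2038 genes (11.7%) were higher and 1459 (8.40%) lower at 24 h than at 3 h, and 5 genes, all higher, were in the stricter class: H19, FBXO2, CRABP2, SLC16A3 and PADI3. That class held 1 gene when any 1 of the 6 libraries was left out. CRABP2 had 134, 146 and 124 normalised counts at 3 h and 956, 784 and 1004 at 24 h, with a log2 difference of 2.76 (adjusted p = 2.43e-05). PADI3, a peptidylarginine deiminase, had 417, 432 and 506 in Control 24 h, 573, 559 and 541 at 3 h and 2359, 2509 and 2573 at 24 h, with a log2 difference between the SP groups of 2.15 (adjusted p = 2.43e-05). For both, 3 h lay between the other groups. CDH1 and EPCAM were also higher at 24 h than at 3 h, by 1.55 and 1.51 on the log2 scale (adjusted p = 0.0178 and 0.000267), and KRT19 by 1.32 (adjusted p = 0.000398). SLC2A4, at 149, 230.2 and 143 after 3 h and 122, 203 and 118 after 24 h, stood near its 24 h level by 3 h (log2 difference -0.24, adjusted p = 0.55). GRHL1 and DACT3 were lower at 24 h than at 3 h, with log2 differences of -0.87 and -1.02 (adjusted p = 0.00321 and 0.0358). These values share the SP 24 h libraries with the comparison above.

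The 24 h response was set beside that of SP 3 days over Control 3 days, which used other libraries, in 1 fit of all 18 libraries and 18785 genes. Across genes the 2 sets of log2 fold changes had Pearson's r = 0.715 and Spearman's rho = 0.610, a description over genes, which are not independent replicates. Of the 108 genes of the stricter class that were higher at 24 h, 106 were higher at 3 days at an adjusted p under 0.05, and all 11 lower ones were lower. Of the wider class, 2049 of 2904 higher genes that were tested there were also higher at 3 days and 37 were lower, and 1268 of 2085 lower genes were also lower and 26 were higher. CDH1 stood at 2.19 at 24 h and 1.39 at 3 days on the log2 scale, EPCAM at 1.40 and 1.36, SLC16A3 at 3.09 and 1.89 and NNMT at -2.05 and -2.00.

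**Figure D5:**
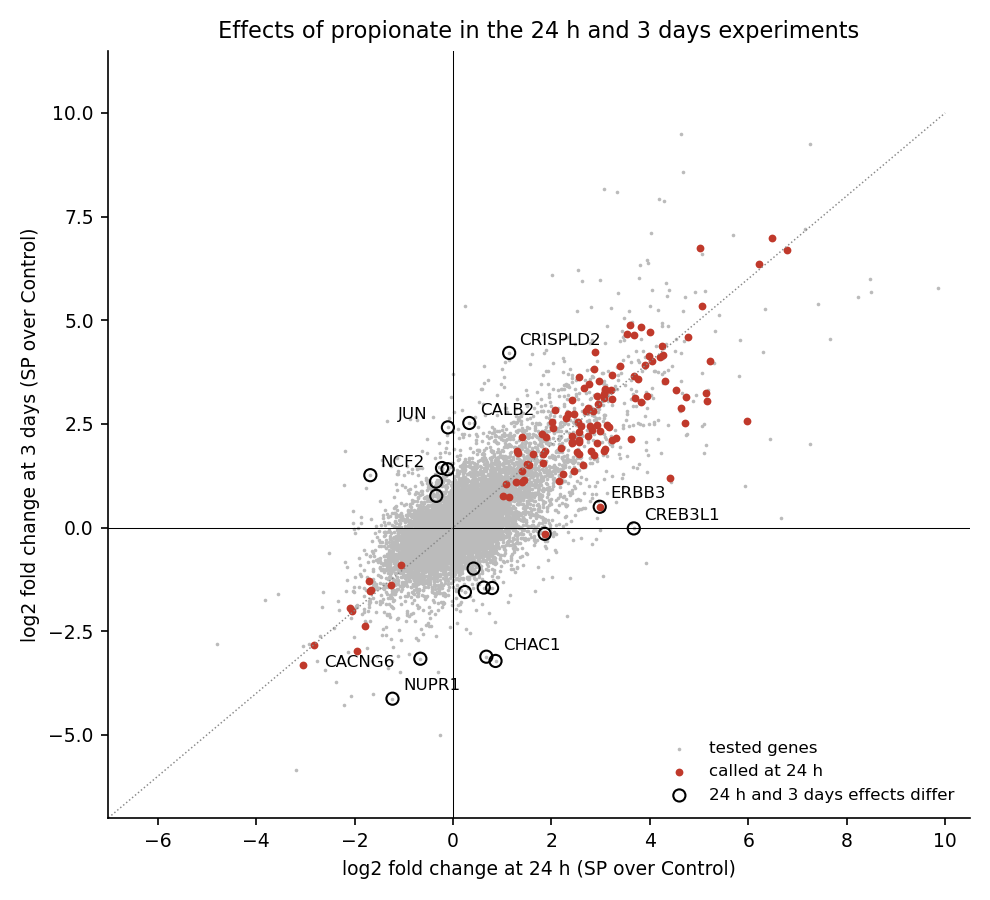
Fitted log2 fold change of SP over its own control at 24 h (x axis) and at 3 days (y axis) for the genes tested in all 18 libraries. Red points are the genes of the stricter class at 24 h and circles the 19 genes whose 2 effects differed in the stricter class, and of the red points all but RINL (1.86 at 24 h, -0.15 at 3 days) have the same sign at both times.

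The difference between the 2 effects was tested itself. At an adjusted p under 0.05, 592 genes (3.15%) had a more positive effect at 24 h and 588 (3.13%) a more negative one, and 19 genes differed in the stricter class, 2 without Control 3 days replicate 3 and 24 without Control 24 h replicate 3. CHAC1, a glutathione-degrading target of ATF4, had normalised counts of 48.7, 75.4 and 72.5 in Control 24 h and 78.2, 112 and 125 in SP 24 h, but 1168, 1165 and 1406 in Control 3 days and 152, 142 and 137 in SP 3 days (log2 difference 3.79 ± 0.28, adjusted p = 1.13e-06). CREB3L1, a membrane-bound transcription factor, had 8.74, 13.4 and 26.4 and 182, 239 and 237 at 24 h against 278, 248 and 314 and 235, 282 and 311 at 3 days (log2 difference 3.69 ± 0.37, adjusted p = 2.44e-05). In both genes the untreated controls of the 2 experiments differed more than the SP groups did. CRISPLD2, a secreted glycoprotein, had 217, 167 and 283 in Control 24 h and 19.6, 17.96 and 19.4 in Control 3 days (log2 difference of effects -3.07 ± 0.28), and JUN, the AP-1 subunit, had 2196, 1964 and 3246 and 546, 490.1 and 500.3 (-2.52 ± 0.23). CACNG6, a calcium channel subunit, differed by 2.5 ± 0.22, with controls of 651, 978 and 947 and 2546, 2445 and 2308. ERBB3 was higher in SP 24 h but had 462, 468 and 505 normalised counts in Control 3 days and 660.0, 647 and 725 in SP 3 days, and its effects differed by a log2 change of 2.48 ± 0.28 (adjusted p = 9.1e-05). The experiment and the time of treatment cannot be told apart in these differences.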

How the data were processed

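Total RNA of A549 cells was extracted with the miRNeasy kit and libraries were made with the NEBNext Ultra kit, which does not mark strand, for paired-end sequencing. Per the submitters' processing notes, FastQC, STAR 2.7.9a, featureCounts, R 4.2.1 and DESeq2 1.36.0 were used with GRCh38. The deposited table holds raw read counts per Ensembl gene, not normalised, and the authors pooled no replicates in it. Whether the counting used strand or how it treated reads shared by genes is not given in the sources used here, so reads of overlapping genes and of pseudogenes cannot be told apart.

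The 9 libraries of this table were fitted together in edgeR 4.0.16 (R 4.3.3) with TMM factors, its filter on low counts (minimum count 10) and robust quasi-likelihood dispersions, with group as the only term, since SP 3 h helps to estimate the spread. The scripts were tested on simulated data. Gene names, lengths, GC content and overlaps came from GENCODE v44, in which 61369 of the 61541 identifiers were found. Promoters came from RefSeq. A library's total sets the precision of low counts, and intervals on reads cover counting error only.

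Replicate numbers come from the sample titles. The residuals of same-numbered Control 24 h and SP 24 h libraries correlated at 0.499, 0.17 and 0.504 and those of different-numbered ones at -0.546 to 0.175, so the pairing of the replicates numbered 2 was no closer than that of 2 different-numbered pairs (0.162 and 0.175). As every same-numbered correlation was over 0.1, the numbers were taken to pair the libraries, and a fit of the 2 groups with the number as a block was run. Residuals within a group sum to 0, so positive same-numbered correlations lower the different-numbered ones, and the pairing was not otherwise tested. Other alternatives were DESeq2 1.42.0, RLE factors, no filter, a mean of at least 1 CPM, the 2 groups alone, an offset for GC content and length (splines with 5 degrees of freedom and an intercept for each library), and leaving out each library. A fit of 18 libraries tested the difference from 3 days.

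The comparison, the 57 gene lists and the tests were chosen with earlier results of these data known. Named genes were the 10 largest rises and falls of the stricter class with a normalised count of at least 100, the 5 with the lowest adjusted p, those the study names, up to 4 members a list with the largest change and the members central to its role, and 5 for each further comparison. A list member whose call was lost without 1 library was not named. Some genes that the rule names are not reported here. Members named outside that rule were chosen after their values were seen.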

Additional observations from a re-analysis of the deposited data

Results flagged for a closer look

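The 5 genes of the stricter class in SP 24 h against SP 3 h differ between the times: H19 at a log2 difference of 6.1, FBXO2 at 2.77, CRABP2 at 2.76, PADI3 at 2.15 and SLC16A3 at 2.12, all higher at 24 h. The effect of SP differed between the 24 h and the 3 days experiment for 19 genes in the stricter class. CHAC1 differed by 3.79 and CREB3L1 by 3.69 on the log2 scale, CACNG6 by 2.5, CRISPLD2 by -3.07 and JUN by -2.52, where a positive value is a more positive effect at 24 h. In these 5 genes the untreated libraries of the 2 experiments were themselves apart, with no overlap.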

How the results depend on the processing

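The number of genes in the stricter class, 119 as fitted, was 1192 with DESeq2, 1131 without a filter on low counts, 78 with a mean of at least 1 CPM, 4 with only the 2 groups, 2 with the replicate block over all 9 libraries, 186 with the block over the 2 groups, 439 with the GC offset and 1192 with the GC offset and that block. Leaving out 1 library gave 1 to 53. At an adjusted p under 0.05 and 2-fold it was 2089, and at 0.01 and 2-fold 1470. The number at an adjusted p under 0.05, 5009 as fitted, was 4224 to 6754 under the alternatives run except with the GC offset and the block (8497), and 2821 to 6547 without 1 library. The 5 genes of SP 24 h against SP 3 h were 656 with DESeq2, 2 with only the 2 groups, 1 with the replicate block and 1 without any 1 library. The 19 genes that differed from 3 days were 201 with DESeq2 and 2 to 24 without 1 library.

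CEBPA changed sign, to -0.07232 with the GC offset and -0.07978 with the GC offset and the replicate block. Of the 5009 genes, 160 had the opposite sign with the GC offset and 0 with DESeq2, RLE factors or either block. Among 239 named genes, 2047 values under alternatives kept their direction and side of the threshold, 67 lost the call, 9 gained it and 2 reversed; over the leave-one-out fits these were 1240, 192, 2 and 0. Beyond the counts given beside their results, the replicate block over the 2 groups changed the calls of FN1 and CHAC1 (adjusted p = 0.057 as fitted and 0.015 with the block) and of no other gene printed with its 24 h values, but S100A14 was not tested in that fit. The cause of these movements was not tested. Depth limits genes with few control reads, and 3 libraries per group limit the rest.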
